A study of Mus musculus with 12 samples.

Results

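The comparison described here is chronic hypoxia against normoxia in the lungs of control mice. Its members are the 6 control arrays of the 12 in the series, chosen by their labels: 3 lungs of Nfat5fl/fl mice kept in hypoxia for 21 days and 3 lungs of Nfat5fl/fl mice kept in normoxia. Nfat5fl/fl animals carry a loxP-flanked gene for the osmotic stress transcription factor NFAT5 and received only the solvent miglyol. The remaining 6 arrays come from Nfat5(EC)-/- mice, which were given 1 mg tamoxifen a day on 5 days to delete the gene in endothelial cells, with 3 lungs in normoxia and 3 in hypoxia. All animals were male or female adults treated at 10 to 12 weeks of age and rested for 2 to 3 weeks, and the lungs were rinsed with cold Ringer solution before RNA was extracted from whole tissue. The oxygen concentration, the Cre line, the carriage of Cre by the controls and the hour at which lungs were taken are not stated in any source available for this work. The series' design text speaks of 4 mice, and it says that preparations with attached tissue such as thymus, or with a weak expression response to hypoxia, were left out. The arrays were therefore chosen in part on the outcome compared here, and this cannot be told apart from the size of the changes below.

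Cells sense low oxygen through prolyl hydroxylases that mark the HIF-1alpha and HIF-2alpha proteins for degradation when oxygen is present; without it, the HIF proteins accumulate and switch on genes for glycolysis, iron handling and vessel growth. The lung answers in its own way: small pulmonary arteries constrict, and over weeks their walls gain muscle, collagen and elastin, pressure rises and the right heart works harder. Mice kept in hypoxia for weeks are a standard model of this pulmonary hypertension.

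Each value is a log2 level of 1 probe set, as deposited, and 1 unit is a 2-fold difference; levels of different genes were not compared, since probe sets differ in brightness. Replicates were close: arrays of the same group correlated across genes at 0.989 to 0.992, and arrays of different groups at 0.972 to 0.991. P-values and SEs below rest on the spread between arrays of the same group. In the limma fit this spread was pooled over the control and knockout arrays and adjusted toward that of other genes. In both control groups the median SD of a gene over its 3 arrays was 0.14. List means were close from one control array to the next for 17 pan-endothelial genes (9.65 to 9.84), 15 alveolar type 2 cell genes (10.89 to 11.17) and 8 thymocyte markers (3.62 to 3.94). Adipose markers were uneven: 15 of them averaged 5.78, 5.84 and 5.86 in normoxia, 5.99 and 6.28 in hypoxic replicates 4 and 2, and 7.49 in hypoxic replicate 1, where the brown fat gene Ucp1 stood at 7.66 against 3.35 to 4.28 on the other control arrays. Y-linked genes divided the arrays into 2 males and 1 female in normoxia and 1 male and 2 females in hypoxia. In these bulk samples, fewer cells of a type and less RNA per cell cannot be told apart.

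Hypoxia shifted the lung transcriptome broadly. Of 24704 genes tested, 2839 (11.5%) passed at an adjusted p under 0.05 (limma, Benjamini-Hochberg), 1323 of them higher (5.36%) and 1516 lower (6.14%) in hypoxia. Most changes were small: the higher genes had a median rise of 0.55 (1.46-fold) and the lower genes a median of -0.63 (0.646-fold), against a median of 0.01 over all genes, and 330 called genes (1.34% of those tested) differed by at least 2-fold, 97 upward and 233 downward. The 3 hypoxic and 3 normoxic arrays did not overlap for 6835 genes (27.7%), among them 2813 of the called ones. The count rests on few arrays and on the fit. With the 6 control arrays alone limma called 1100 genes, and with the mean of the nuclear noncoding RNAs described below as a covariate, 2. Leaving out 1 control array at a time left between 808 calls, without hypoxic replicate 2, and 3920 calls, without normoxic replicate 4; the counts without normoxic replicates 1 and 2 were 1084 and 978. In all 6 of these leave-out fits 668 of the 2839 genes were called, 311 higher and 357 lower. Unless a lost call is stated, each gene named below as having risen or fallen belongs to those 668. These fits kept all knockout arrays. With the 6 control arrays alone 18 named genes lost their call, and with the replicate number as a block 20 did, which is not marked below. List counts below are to be read beside the 5.36% of all genes called higher and the 6.14% called lower. In a leave-out fit the total called also changed, as given above.

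The proportion of called genes grew with signal. In the dimmest of 10 equal groups of genes 0.0809% were called higher and 0.162% lower, whereas in the brightest group 10.1% were higher and 11.5% lower, as the plot of calls by level shows. Changes in dim genes were therefore seldom measurable here, and a low share of calls in a dim family is no sign of stable expression. In the groups with median levels of 6.05 to 9.13, 9.07% to 10.7% were called higher and 10.0% to 11.5% lower. The shares over all genes given beside lists below are therefore lower than those of bright genes. No list share below was adjusted for level. Olfactory receptors, which are hardly transcribed in lung, had 6 calls among 1088 genes. Collagen genes stood at 16 higher calls among 44.

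**Figure D1:**
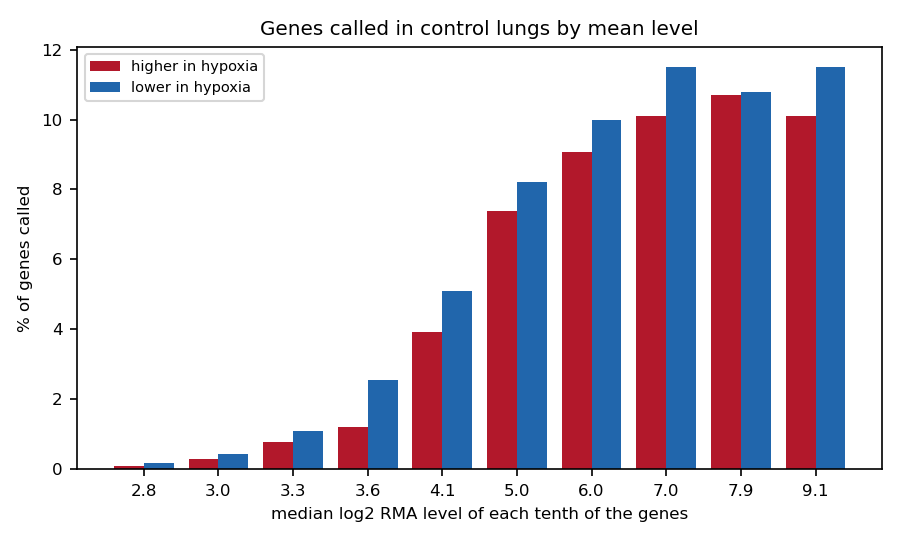
Percentage of genes called higher (red) and lower (blue) in hypoxic control lungs, for 10 equal groups of genes ordered by mean level; the x axis gives each group's median log2 RMA level. Calls are rarest in the dimmest group (0.0809% higher, 0.162% lower) and reach 10.1% and 11.5% in the brightest.

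The largest measured rise was that of Ntrk2, which encodes TrkB, the receptor of brain-derived neurotrophic factor. Its levels were 4.55, 4.19 and 4.73 in normoxia and 7.53, 7.70 and 7.91 in hypoxia. The groups lay far apart, and the change of 3.22 ± 0.19 (SE, n = 3 per group) was a 9.35-fold rise with an adjusted p of 1.6e-05. Cdk19, a kinase of the Mediator complex, went from 8.25, 8.40 and 8.53 to 10.21, 10.23 and 10.42. This was a 3.71-fold rise with the smallest adjusted p of all genes, 1.4e-05 (change 1.89 ± 0.10). Adam23, a membrane protein of the ADAM family without known protease activity, read 4.83, 4.35 and 4.49 against 6.87, 7.14 and 6.53, a 4.89-fold rise (change 2.29 ± 0.27, adjusted p = 0.0021). Npy1r, a receptor of the sympathetic transmitter neuropeptide Y that contracts vessels, rose 3.01-fold from 5.16, 5.11 and 5.08 to 6.88, 6.76 and 6.47 (adjusted p = 0.00031). Several genes of this group are best known from neurons: Gap43, a growth cone protein, rose 2.95-fold, and Reln, a secreted guidance protein that lymphatic vessels also make, rose 2.88-fold. Reg3g, an antimicrobial lectin of airway epithelium, climbed from 8.29, 7.78 and 7.41 to 10.13, 10.00 and 9.23. Igfbp2, an insulin-like growth factor binding protein of alveolar type 1 cells, rose 2.80-fold (1.48 ± 0.11, adjusted p = 0.00017), Ass1, an enzyme that regenerates arginine, 2.86-fold, and the anion transporter gene Slc26a10 2.94-fold. Eef1a1, the translation elongation factor, had 3.26, 3.34 and 4.41 against 5.53, 5.61 and 6.06, with the normoxic levels close to the lowest on the array. The call of the growth factor gene Clec11a (2.83-fold) was lost without hypoxic replicate 2 (adjusted p = 0.065) and without normoxic replicate 2 (0.058).

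**Figure D2:**
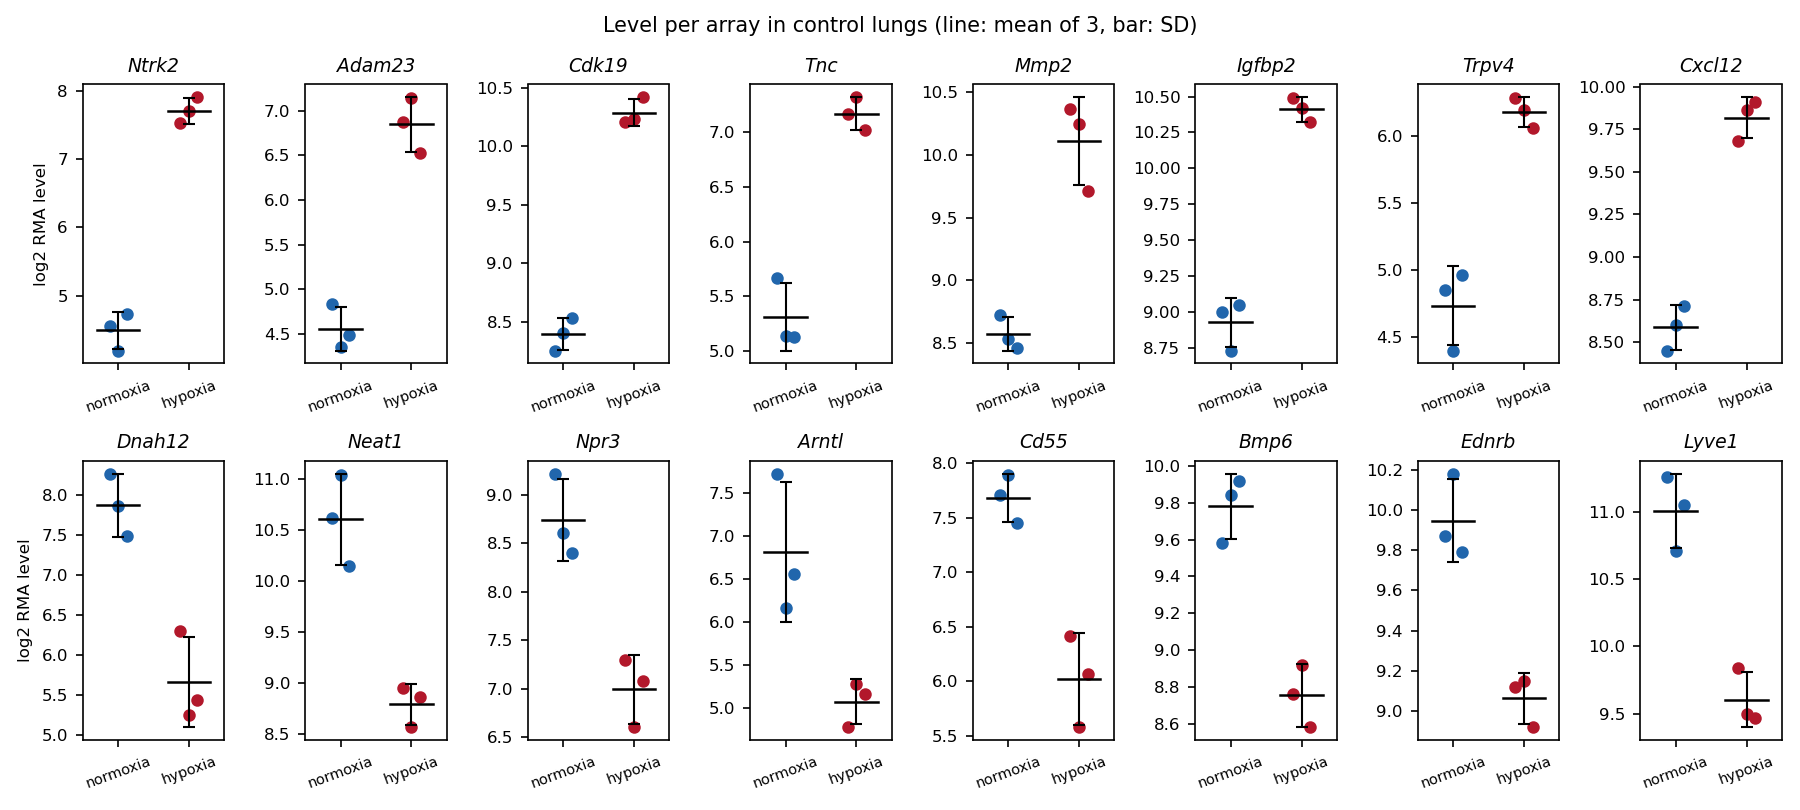
Log2 RMA level of 16 genes on each control array, normoxia in blue and hypoxia in red; horizontal lines are means of 3 arrays and bars are SDs. The first 8 genes rose and the last 8 fell, with no overlap between the groups in any panel; Ntrk2 moved from 4.19 to 4.73 up to 7.53 to 7.91.

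Among the largest falls, leaving out genes with placeholder names, were genes of cilia, the nucleus and the clock. Dnah12, an axonemal dynein of motile cilia, dropped from 8.27, 7.86 and 7.49 to 6.31, 5.25 and 5.44, a 0.217-fold level (-2.21 ± 0.38, adjusted p = 0.0073). The noncoding RNA Neat1, the scaffold of nuclear paraspeckles, dropped from 10.62, 11.04 and 10.15 to 8.95, 8.57 and 8.87 (0.287-fold). Npr3, the receptor that clears natriuretic peptides, dropped from 9.22, 8.61 and 8.40 to 7.29, 6.60 and 7.08 (0.298-fold, adjusted p = 0.0053). In each of these genes the groups were separate. The clock gene Arntl, the splicing factor gene Luc7l3, the cilia gene Cfap47, Cmc4, Phxr4 and Cd55, which shields cells from complement, fell to between 0.21 and 0.33 of their normoxic levels. The calls of Ccdc39, Srsf10, Thoc2, Rap1a, Prpf39 and Sult1d1 (0.307- to 0.321-fold) were each lost without hypoxic replicate 2, normoxic replicate 1 or normoxic replicate 2, where adjusted p values ran from 0.064 to 0.11. Without hypoxic replicate 4 all of them but Prpf39 were lost as well.

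Genes that build the vessel wall and the matrix moved upward together. Of the 22 collagens on the fibrillar and network list 14 rose, with a median change of 0.59 against 0.01 over all genes. The share of 63.6% stands beside a background of 5.36% called higher. By gene name 44 collagens were measured, and 16 of them were called higher (36.4%), with a median of 0.26. Col1a1, the main fibrillar collagen of the adventitia, went from 9.17, 8.93 and 8.83 to 9.79, 10.10 and 9.78, and Col4a1, the chief collagen of basement membranes, from 8.40, 8.69 and 8.68 to 9.53, 9.68 and 9.63. The arrays were separate for both. Col1a1 rose 1.88-fold (adjusted p = 0.01) and Col4a1 2.04-fold (adjusted p = 0.005), and Col1a2, Col4a2, Col6a2 and Col8a1 rose 1.78- to 1.87-fold. Col3a1 stood 2.01-fold higher, but its call was lost without hypoxic replicate 2 (adjusted p = 0.058) and without normoxic replicate 2 (0.053). The number of listed collagens called was 6 without hypoxic replicate 2 and 8 without normoxic replicate 1.

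Enzymes that hydroxylate, fold and cross-link collagen rose in 15 of 21 cases, with a median of 0.56. Plod1, a lysyl hydroxylase, had 7.49, 7.44 and 7.58 in normoxia and 8.36, 8.54 and 8.46 in hypoxia. That separation gave a 1.93-fold change with an adjusted p of 0.0017. The prolyl hydroxylases P4ha3 and P3h3 rose 1.89- and 1.61-fold, and the lysyl oxidases Lox and Loxl1, which form the covalent cross-links of collagen and elastin, 1.73- and 2.04-fold. Without hypoxic replicate 2 these 5 were the ones called; without normoxic replicates 1 and 2 there were 8 and 7. The hydroxylases P4ha1 and Plod2 did not pass, with changes of 0.16 and 0.02.

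Elastic fibre genes rose in 8 of 15 cases (median 0.49). Fbln2 moved from 6.07, 6.18 and 6.32 to 7.25, 7.38 and 7.19 (2.12-fold, adjusted p = 0.0011), the microfibril gene Mfap5 rose 2.04-fold, and Ltbp2, which binds microfibrils, rose 2.54-fold. Mfap4, Fbln5 and Emilin1, all partners of elastin, rose 1.39- to 1.90-fold. Elastin itself, Eln, had overlapping arrays of 8.77, 7.66 and 7.68 against 9.37, 9.21 and 8.71 and did not pass (1.06 ± 0.36, adjusted p = 0.077). In the matricellular list 9 of 21 genes rose (median 0.24): Tnc, the tenascin-C of remodelling arteries, 3.62-fold, Ccn4 2.16-fold, fibronectin (Fn1) 1.85-fold, Ccn5 1.85-fold, Ccn2 1.72-fold and Sparc 1.34-fold. Postn, encoding periostin, showed no such rise (-0.11 ± 0.17, adjusted p = 0.74).

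Among 24 proteoglycans 7 rose, with Fmod, which regulates collagen fibril width, at 2.30-fold, Podn at 1.84-fold and Gpc4, Prelp and Bgn at 1.30- to 1.52-fold. Of 14 laminins and basement membrane genes 5 rose, against 2 without hypoxic replicate 2 or normoxic replicate 1 and 3 without hypoxic replicate 4 or normoxic replicate 2; Lamc3 and Lama2 rose 1.93- and 1.55-fold. Of 17 metalloproteinases and inhibitors 7 rose, 3 without normoxic replicate 2 and 4 without hypoxic replicate 2 or normoxic replicate 1. The 7 include the inhibitor genes Timp1 and Timp3 (changes of 0.7 and 0.35), whose calls did not hold in every leave-out fit. Mmp2, the gelatinase that degrades basement membrane collagen, went from 8.72, 8.53 and 8.46 to 10.37, 10.25 and 9.71, a 2.90-fold rise (adjusted p = 0.0021). Mmp28 rose 2.01-fold and Mmp23 1.43-fold.

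Contractile genes of smooth muscle rose in part. Of 20 measured, 7 were called higher (median 0.36), and 4 without hypoxic replicate 4 or normoxic replicate 1. Tagln, an actin-binding marker of smooth muscle, stood at 7.97, 7.99 and 7.95 in normoxia and 8.48, 8.57 and 8.51 in hypoxia, with little spread in either group (1.46-fold, adjusted p = 0.0049). Lmod1, Des and Myl9 rose 1.92-, 1.63- and 1.63-fold. Acta2, the actin of the same cells, overlapped between groups and did not pass (0.18 ± 0.10, adjusted p = 0.26). Pericyte markers had 4 calls among 12, 1 without hypoxic replicate 2, normoxic replicate 1 or normoxic replicate 2, and 2 without normoxic replicate 4. Lamc3 was that call, while Pdgfrb, the defining receptor of pericytes, changed by 0.24 ± 0.18 (adjusted p = 0.44). Fibroblast markers rose in 6 of 16 cases, and in 3 without hypoxic replicate 2 or normoxic replicate 1. Those called in every fit were Mfap5, Gdf10 (2.55-fold) and Cd34 (1.59-fold), whereas the receptor Pdgfra was level at -0.00 ± 0.10 (adjusted p = 0.99).

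**Figure D3:**
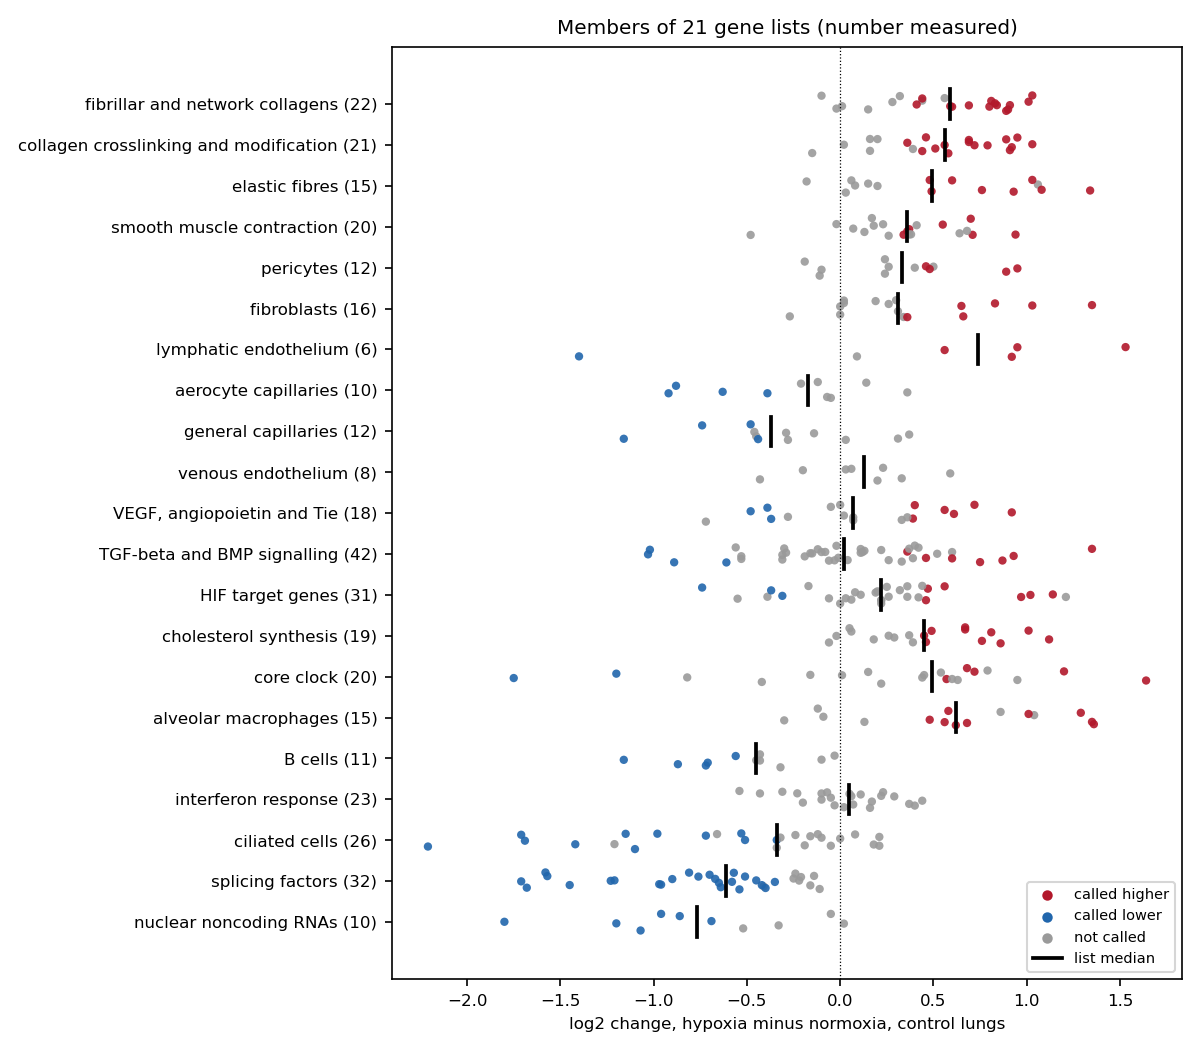
Log2 change of each measured member of 21 gene lists in control lungs (x axis), 1 point per gene, red when called higher, blue when called lower, grey when not called; black ticks are list medians. Collagens and cross-linking enzymes lie right of 0 (medians 0.59 and 0.56), splicing factors and nuclear noncoding RNAs left of it (medians -0.61 and -0.77).

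Endothelial genes went both ways, and the most general markers did not pass. Pecam1 and Cdh5, the junction proteins shared by all endothelium, changed by -0.01 ± 0.08 and -0.03 ± 0.10. Of 17 pan-endothelial genes, Emcn and Mmrn2 rose (1.52- and 1.71-fold), Tek and Eng fell (0.717- and 0.653-fold), and 1 more was called lower. Tek is the angiopoietin receptor Tie2, and Eng, a coreceptor for BMP ligands, is mutated in hereditary haemorrhagic telangiectasia. Markers of the aerocyte, the large capillary cell over which gas exchange takes place, were lower in 4 of 10 cases (median -0.17). Ednrb, the endothelin receptor that clears the peptide and releases nitric oxide, fell from 9.87, 10.18 and 9.79 to 9.12, 9.15 and 8.92. It reached 0.543 of its normoxic level (adjusted p = 0.0042), and Fibin and Cyp4b1 reached 0.529 and 0.646. Car4 and Apln, on the same list, did not pass (changes of -0.12 and 0.36, adjusted p = 0.62 and 0.19). Of the 10 aerocyte markers 8 had a lower mean in hypoxia and 2 a higher one. General capillary markers were lower in 4 of 12 cases (median -0.37). Plvap, the diaphragm protein of capillary fenestrae and caveolae, fell from 10.81, 10.17 and 10.78 to 9.33, 9.78 and 9.19 (0.449-fold). Gpihbp1 and Lpl, on the same list, did not pass (changes of -0.14 and 0.37, adjusted p = 0.67 and 0.31). Of the 12 general capillary markers 9 had a lower mean in hypoxia and 3 a higher one. None of 8 venous markers was called by limma, and at an unadjusted p under 0.05 there were 0 lower and 1 higher. In the arterial list Cxcl12 rose 2.34-fold, from 8.45, 8.60 and 8.71 to 9.68, 9.86 and 9.91, while Efnb2, the ephrin that marks arterial identity, fell to 0.542 of its level.

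Lymphatic genes changed in 5 of 6 cases (median 0.74). Mmrn1 rose from 7.19, 7.25 and 7.23 to 8.27, 8.01 and 8.15 (1.90-fold, adjusted p = 0.0017), and Reln rose as given above. Lyve1, the hyaluronan receptor of lymphatic capillaries that some lung macrophages also carry, fell from 11.26, 10.71 and 11.05 to 9.84, 9.50 and 9.47, a level of 0.378 (adjusted p = 0.0011). The calls of Prox1 (1.93-fold), the master regulator of lymphatic fate, and Flt4 (1.47-fold) were lost without hypoxic replicate 2 (adjusted p = 0.062 and 0.058) and without normoxic replicate 1 (0.056 and 0.06). The lymphatic growth factors were higher as well. Vegfc rose 1.90-fold from 7.02, 6.57 and 7.06 to 7.77, 7.67 and 7.98, and Vegfd 1.52-fold from 8.32, 8.70 and 8.44 to 9.07, 9.14 and 9.07. Vegfa, the main angiogenic factor, was lower at 11.42, 11.25 and 11.36 than at 11.78, 11.81 and 11.57 (0.771-fold, adjusted p = 0.025), a call lost without hypoxic replicates 2 and 4 or normoxic replicates 1 and 2 (adjusted p 0.055 to 0.098). Of 18 genes of the VEGF and Tie families 6 were called higher and 3 lower. The counts were 2 and 1 without hypoxic replicate 2, 3 and 1 without hypoxic replicate 4 or normoxic replicate 2, and 2 and 2 without normoxic replicate 1.

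Vasoactive pathways differed in their share of calls, with 14.3% for natriuretic peptides, 35.3% for prostanoids, 25.0% for ion channels and 3 of 15 genes for nitric oxide, beside 11.5% of all genes. In the endothelin list of 6 genes only Ednrb passed, and the ligand Edn1 overlapped between groups (8.02, 7.82 and 7.61 against 8.02, 8.58 and 8.11, adjusted p = 0.089). In the natriuretic list of 7 genes Npr3 passed, while the signalling receptor Npr1 changed by -0.18 ± 0.11 (adjusted p = 0.32). Among 15 genes of the nitric oxide pathway, Nos2, the inducible synthase, rose 1.73-fold from 3.76, 4.05 and 4.30 to 4.72, 5.13 and 4.64. Nos3, the endothelial synthase, rose 1.44-fold from 6.09, 6.09 and 6.23 to 6.61, 6.70 and 6.67, a call lost by a narrow margin without hypoxic replicate 2 (adjusted p = 0.051). Both groups of arrays were separate for Nos3.

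Among 17 prostanoid genes 4 were called higher and 2 lower, against 1 and 1 without hypoxic replicate 2 or normoxic replicate 1 and 1 and 2 without normoxic replicate 2. Ptger1, a receptor for prostaglandin E2, rose 2.47-fold from 5.76, 6.19 and 6.05 to 7.18, 7.60 and 7.15, and Hpgd, which inactivates prostaglandins in the lung, fell to 0.514 of its level. Ion channels of lung vessels had 4 higher calls and 1 lower among 20, but 1 in all without hypoxic replicate 2 or normoxic replicate 2, 2 without normoxic replicate 1 and 3 without hypoxic replicate 1. The call that held was Trpv4, a calcium channel opened by stretch and heat, which read 4.85, 4.40 and 4.96 in normoxia and 6.28, 6.19 and 6.06 in hypoxia (2.71-fold, 1.44 ± 0.13, adjusted p = 0.00036). No gene of the renin, angiotensin and bradykinin list passed in limma (10 genes, 2 higher and 0 lower at an unadjusted p under 0.05).

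BMP signalling, which restrains growth of the arterial wall and whose receptor BMPR2 is the main gene of heritable pulmonary hypertension, had lower levels of several components. Bmpr2 was at 11.09, 11.36 and 10.80 in normoxia and 10.22, 10.09 and 9.85 in hypoxia (0.489-fold, adjusted p = 0.013), a call lost by a small margin without normoxic replicate 2 (adjusted p = 0.053). The ligand Bmp6 fell from 9.58, 9.84 and 9.92 to 8.76, 8.92 and 8.58 (0.491-fold, adjusted p = 0.0048), and Smad6, an inhibitor that BMP signals induce, fell to 0.538. On the other side Bmp2 rose 1.90-fold, Fstl1, an antagonist of BMP and activin signalling, 1.83-fold, and Gdf10, made by fibroblasts, 2.55-fold. Id1, a direct BMP target, did not pass (-0.29 ± 0.17, adjusted p = 0.29). Over all 42 genes of the TGF-beta and BMP list 7 rose and 4 fell, with a median of 0.02.

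Other growth factor systems had calls in both directions or upward. The shares called were 18.5% for IGF, PDGF and FGF, 16.3% for Wnt, 33.3% for Notch and 22.2% for neurotrophins, beside 11.5% of all genes. The 11.5% includes dim genes, which were seldom called, so these shares alone do not show an excess of calls. In the IGF, PDGF and FGF list of 27 genes, 3 rose and 2 fell, against 3 in all without hypoxic replicate 2, normoxic replicate 1 or normoxic replicate 2. Igfbp3, a binding protein that lowers free IGF, fell to 0.530 as Igfbp2 rose, and Pdgfb did not pass (0.39 ± 0.15, adjusted p = 0.11). In the Wnt list of 43 genes 7 rose, and 2 without hypoxic replicate 2: the receptor Fzd6 (1.49-fold) and Dkk3 (1.69-fold). Normoxic replicate 1 also mattered there, with 3 higher calls without it, and normoxic replicate 2, with 4. In the Notch list of 15, the ligand Dll4, which arterial endothelium uses, fell to 0.545 and the effector Rbpj to 0.586. Target genes went both ways. Hey2 and Heyl rose 1.74- and 1.84-fold, while Hes1 was called lower (change -0.38, limma adjusted p = 0.042), a call that did not hold in every leave-out fit. Hey1, Hes5 and Nrarp did not pass (changes of -0.45, 0.02 and 0.29). In the neurotrophin list of 9, Ntrk2 was joined by the sorting receptor Sorcs2 (1.97-fold). Bdnf, the ligand of TrkB, had overlapping arrays and a change of -0.07 ± 0.15 (adjusted p = 0.82).

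Of 12 genes of the HIF pathway itself, 1 was called higher and 1 lower after 21 days. This share of 16.7%, beside 11.5% of all genes, was not adjusted for level. Hif1a stood at 8.32, 8.23 and 7.98 in normoxia and 8.06, 7.77 and 7.93 in hypoxia and did not pass (-0.26 ± 0.12, adjusted p = 0.2). Epas1, encoding the HIF-2alpha subunit that prevails in endothelium, fell from 12.29, 12.47 and 12.37 to 11.89, 11.89 and 11.94 (0.724-fold, adjusted p = 0.012). Of 31 known HIF targets, 6 were called higher and 3 lower (median 0.22), against 3 and 1 without hypoxic replicate 2 or normoxic replicate 1 and 4 and 1 without normoxic replicate 2. The glycolytic enzyme gene Pfkl rose 2.20-fold from 7.15, 6.97 and 7.36 to 8.10, 8.42 and 8.38, the stress gene Ndrg1 1.96-fold and Mxi1, an antagonist of MYC, 1.47-fold. Hilpda, a lipid droplet protein that HIF induces in cultured cells, fell to 0.599 of its level. Slc2a1, the glucose transporter, and Car9, a classical HIF target, did not pass (changes of 0.22 and 0.11, adjusted p = 0.23 and 0.61). Ldha was 1.39-fold and Ddit4 2.03-fold higher; the call of Ldha was lost without hypoxic replicate 2 (adjusted p = 0.077) and normoxic replicate 1 (0.075), and that of Ddit4 without every control array except normoxic replicate 4 (0.07 to 0.13). The hydroxylase gene Egln3 (1.52-fold, adjusted p = 0.039) lost its call without every array except normoxic replicate 2.

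Promoters of Ldha and Ddit4 are shown because both carry the core of the HIF response element. The letters searched were ACGTG on both strands, in the 250 bases before the RefSeq start on GRCm38.p6, and matches are in capitals; the E-box CACGTG contains this core. The Ldha window spans chr7:46845554-46845803 on the plus strand and holds 3 matches; the Ddit4 window spans chr10:59951771-59952020 on the minus strand and holds 1.
Ldha: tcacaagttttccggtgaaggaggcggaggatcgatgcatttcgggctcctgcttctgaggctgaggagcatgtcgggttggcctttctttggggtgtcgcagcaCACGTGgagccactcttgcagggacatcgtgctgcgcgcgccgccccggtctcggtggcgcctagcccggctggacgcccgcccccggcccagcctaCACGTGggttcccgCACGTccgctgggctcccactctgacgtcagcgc
Ddit4: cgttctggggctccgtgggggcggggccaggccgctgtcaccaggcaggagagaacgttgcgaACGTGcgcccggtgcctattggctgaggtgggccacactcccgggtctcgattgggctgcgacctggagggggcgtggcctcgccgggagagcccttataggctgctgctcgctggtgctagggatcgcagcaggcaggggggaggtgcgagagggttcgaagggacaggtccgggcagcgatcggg
A window was found for 18379 of the tested genes. The core was present in 12 of 28 HIF targets (42.9%), against 18.0% of all windows. Other lists held it too: 10 of 17 clock genes (58.8%), 35.7% of the collagen-modifying genes and 31.0% of the splicing factors, which were lower. Called genes held it in 22.2% of windows when higher and in 21.1% when lower. Base composition moved with the calls: the median GC content was 60.0% in the windows of higher genes, 59.6% in those of lower genes, 62.8% in those of HIF targets and 55.2% over all. Its part in these shares was not tested.

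Cholesterol synthesis was the metabolic list with the highest share of calls, with 10 of 19 genes higher (median 0.45), and 4 without hypoxic replicate 2, 5 without normoxic replicate 2 and 6 without normoxic replicate 1. Cyp51, which demethylates lanosterol, rose 2.17-fold from 6.40, 5.51 and 5.94 to 6.99, 7.25 and 6.97, and Lss, which closes the sterol rings, rose 2.01-fold. Mvk and Dhcr7, an early and the last enzyme of the pathway, rose 1.76- and 1.59-fold. Hmgcs1 and Idi1 were level (0.05 ± 0.12 and -0.02 ± 0.12). Fatty acid genes had 4 calls among 19, all higher, and 7 at an unadjusted p under 0.05; limma called 2 without hypoxic replicate 4 and 0 without hypoxic replicate 2, normoxic replicate 1 or normoxic replicate 2. The lipid droplet gene Cidec, which is also on the adipose marker list, was 2.55-fold higher, with its call lost without the same 3 arrays (adjusted p 0.061 to 0.077). Hypoxic replicate 1, with its raised adipose markers, had the highest Cidec level (9.03 against 8.30 and 7.88), and without it the list had 3 calls. The part of adipose tissue in these values was not tested further.

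The circadian clock differed between the groups, with 5 of 20 clock genes higher and 2 lower (median 0.49), and 1 and 2 without hypoxic replicate 2. Clocks run on the activators ARNTL and CLOCK, which bind E-boxes and switch on the repressors Per, Cry, Ciart and Bhlhe40 and the output factors Dbp, Tef and Hlf. Arntl fell from 7.73, 6.17 and 6.56 to 4.78, 5.28 and 5.17 (0.298-fold, adjusted p = 0.01) and Clock from 10.04, 9.88 and 9.40 to 8.89, 8.26 and 8.57 (0.436-fold). Ciart rose from 6.52, 6.66 and 6.5 to 7.07, 7.45 and 7.20 (1.61-fold, adjusted p = 0.0061). For these 3 genes the groups did not overlap and the calls held. Dbp was 3.12-fold higher, at 10.81 to 11.14 against 8.16, 9.89 and 9.98, and lost its call without hypoxic replicate 2 (adjusted p = 0.099) or hypoxic replicate 4 (0.052). Bhlhe40 (1.65-fold), Bhlhe41 (2.30-fold) and Cry1 (1.49-fold) were higher, with calls lost without hypoxic replicate 2 (adjusted p 0.059, 0.1 and 0.063) among other arrays. Per1, Per2 and Per3 did not pass in control lungs (adjusted p = 0.24, 0.15 and 0.22). Normoxic replicate 1 stood apart from its group in several of these genes: Per2 read 5.91 there against 7.29 and 7.46, Npas2 6.68 against 4.88 and 5.16, and Dbp as above. Without that array Arntl changed by -1.29. A different hour of sampling and an effect of hypoxia on the clock cannot be told apart here, since the hour is not given.

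Windows of Ciart, Bhlhe41 and Cry1 are printed for their E-boxes, with CACGTG in capitals; this word reads the same on both strands. They lie at chr3:95882229-95882478, chr6:145865421-145865670 and chr10:85185055-85185304, all on the minus strand, and hold 3, 1 and 1 matches in the 250 bases before the RefSeq start (GRCm38.p6).
Ciart: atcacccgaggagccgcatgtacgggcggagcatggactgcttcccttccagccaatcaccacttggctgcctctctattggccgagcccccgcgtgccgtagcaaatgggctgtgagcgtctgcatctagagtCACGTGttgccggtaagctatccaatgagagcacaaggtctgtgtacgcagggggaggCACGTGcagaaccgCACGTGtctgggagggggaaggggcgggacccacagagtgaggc
Bhlhe41: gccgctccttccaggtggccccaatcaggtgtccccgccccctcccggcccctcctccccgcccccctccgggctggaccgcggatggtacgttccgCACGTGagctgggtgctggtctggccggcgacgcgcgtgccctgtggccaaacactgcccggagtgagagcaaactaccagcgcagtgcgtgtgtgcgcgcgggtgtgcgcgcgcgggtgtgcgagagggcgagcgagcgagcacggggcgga
Cry1: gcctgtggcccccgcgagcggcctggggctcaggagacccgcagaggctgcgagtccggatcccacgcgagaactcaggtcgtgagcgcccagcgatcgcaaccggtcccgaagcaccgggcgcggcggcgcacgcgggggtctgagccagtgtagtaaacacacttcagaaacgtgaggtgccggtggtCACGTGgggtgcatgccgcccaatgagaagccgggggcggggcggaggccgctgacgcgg
Of 17 clock genes with a window 5 carried the E-box (29.4%), against 6.74% of all windows, 10.2% of higher and 7.54% of lower genes. The median GC content of the clock windows was 63.6%, and its part in these shares was not tested.

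Genes of nuclear RNA processing were lower. All 32 splicing factors measured had a lower mean in hypoxia and 24 were called lower (median -0.61); the count was 12 without hypoxic replicate 2 or normoxic replicate 2, and 15 without normoxic replicate 1. Clk1, a kinase that phosphorylates SR proteins, fell from 10.28, 10.39 and 9.76 to 8.73, 8.26 and 8.69 (0.334-fold, adjusted p = 0.0053), and its paralogue Clk4 to 0.434. Luc7l2 and Luc7l3, which help define splice sites, fell to 0.367 and 0.305, Rbm39 to 0.428, Srsf5 to 0.513 and Son, a core protein of nuclear speckles, to 0.535. The helicases Ddx5 and Ddx17 fell less, to 0.758 and 0.631. Of 10 nuclear noncoding RNAs 6 were called lower (median -0.77), and 3 without hypoxic replicate 2 or normoxic replicate 2. Malat1, a speckle RNA, went from 12.67, 12.76 and 12.50 to 11.80, 11.62 and 11.62 (0.513-fold), and Ftx, a regulator of X inactivation, to 0.476. In the class of long noncoding RNAs as a whole 126 of 3055 (4.12%) were lower, against 6.14% of all genes. Only 23 (0.753%) were higher, against 5.36% of all genes, so the calls of this class were mostly downward. Of 377 zinc finger genes of the Zfp series 52 (13.8%) were lower and 16 (4.24%) higher.

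The mean of the 10 nuclear noncoding RNAs was 6.61, 6.81 and 6.34 in normoxia and 5.92, 5.70 and 5.89 in hypoxia. The control groups did not overlap on this index. With the index as a covariate in limma, 2 genes were called, Ntrk2 and Cdk19, against 2839 without it. The covariate widened the median standard error 1.83-fold, from 0.118 to 0.205, and took the called changes to a median of 0.448 of their size, 0.57 for higher and 0.359 for lower genes; 2551 of the 2839 kept their sign. The loss was uneven over genes. Ntrk2 kept 3.34, Fbln2 1.17, Mmp2 1.60, Lyve1 -1.70 and Plvap -1.62, whereas Clk1 was left with -0.39, Bmpr2 with -0.11 and Nfat5 with -0.06. Differences in RNA preparation between the groups and a change in nuclear RNA in hypoxia cannot be told apart.

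**Figure D4:**
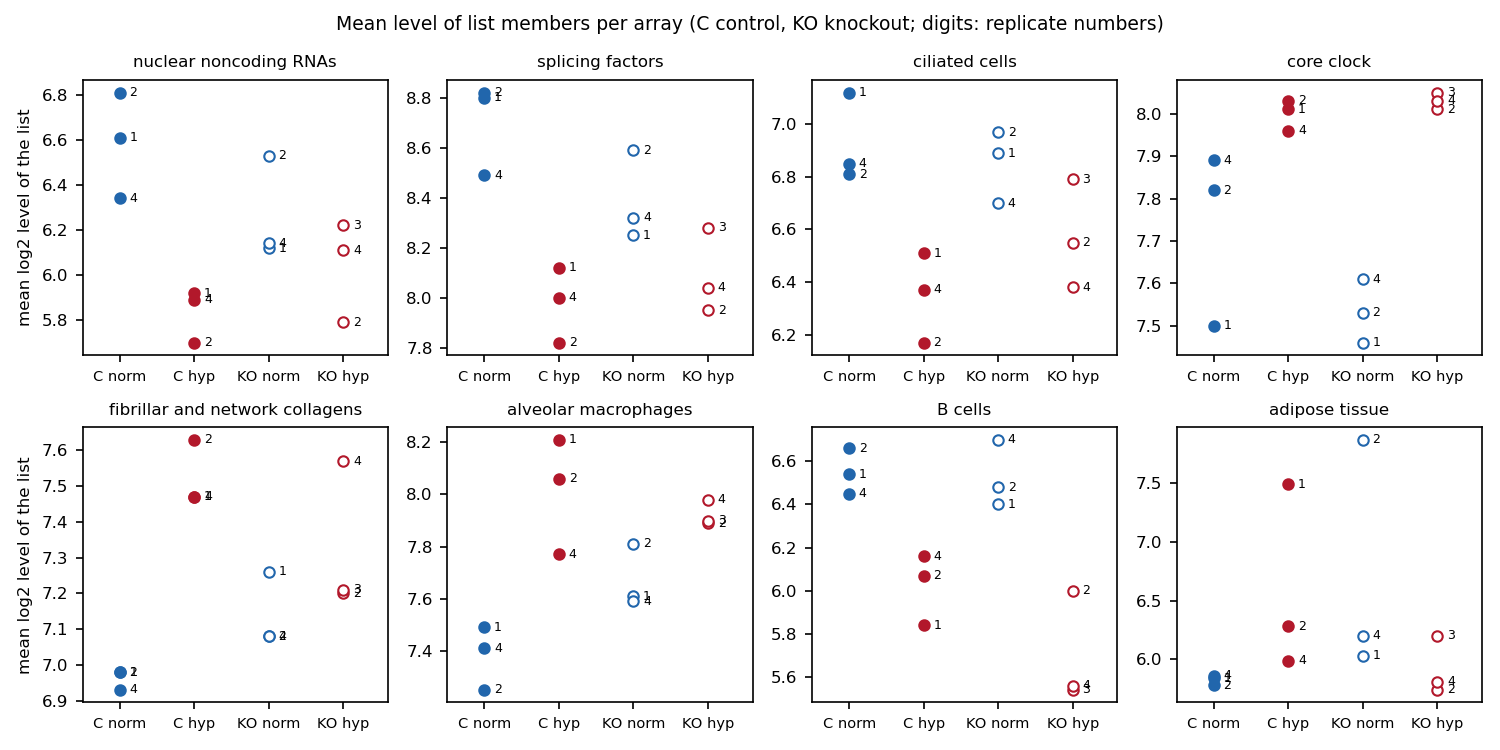
Mean log2 level of the members of 8 lists on each of the 12 arrays: control lungs filled, knockout lungs open, normoxia blue, hypoxia red, with replicate numbers beside the points. Nuclear noncoding RNAs separate the control groups (6.34 to 6.81 against 5.70 to 5.92), and adipose markers are raised on control hypoxic replicate 1 (7.49).

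The airway epithelium showed lower cilia genes. Of 26 ciliated cell markers 11 were lower (median -0.34), against 3 without hypoxic replicate 2, 5 without normoxic replicate 1 and 6 without normoxic replicate 2; by gene name, 16 of 49 Cfap and Dnah genes were lower. Besides Dnah12, Cfap47 fell to 0.309 and Dnah11 from 7.01, 6.93 and 6.95 to 6.28, 6.0 and 6.45 (0.607-fold, adjusted p = 0.0049). Foxj1, the transcription factor that defines the ciliated cell, was level (-0.00 ± 0.12, adjusted p = 0.99), as was Tppp3 (-0.12 ± 0.11, adjusted p = 0.54). The mean of the ciliated list was lowest on hypoxic replicate 2, at 6.17. That array also had the lowest nuclear RNA index. With the index as a covariate the list median was -0.36, against -0.34 without it, and 0 members were called by limma; without it 11 were called and 15 had an unadjusted p under 0.05. Dnah12 had -0.64 in place of -2.21 and Dnah11 -0.53 in place of -0.72.

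Among the other epithelial lists the share called was 46.7% for alveolar type 1 cells, beside 42.3% for ciliated cells and 11.5% of all genes. It was smaller for alveolar type 2 and club cells, at 3 of 15 genes each. Of 15 alveolar type 2 genes 3 were called higher, Il33, Napsa (1.41-fold) and the surfactant protein gene Sftpd (1.41-fold), and of 15 club cell genes 1 was higher, Reg3g, and 2 lower, Sult1d1 and Scgb3a2 (0.706-fold). Each of these lists had 1 call without hypoxic replicate 2, normoxic replicate 1 or normoxic replicate 2, Il33 and Reg3g. Sftpc and Scgb1a1, the defining secreted proteins of alveolar type 2 and club cells, changed by -0.07 ± 0.07 and -0.03 ± 0.07, but both lay near the top of the array's range (13.36 to 13.68), where a rise would be hard to see. Ager, the marker of alveolar type 1 cells, changed by 0.08 ± 0.09. Of 15 type 1 genes 4 were higher and 3 lower, against 1 and 1 without hypoxic replicate 2 or normoxic replicate 1 and 2 and 1 without normoxic replicate 2; Igfbp2 rose and Rtkn2 fell, to 0.660, in every fit. Mucous genes were uneven among hypoxic lungs: Clca1 read 6.67, 8.54 and 3.90 against 3.78 to 4.07 in normoxia, and Muc5ac 4.63, 5.71 and 4.02 against 3.79 to 4.10. Neither passed (adjusted p = 0.11 and 0.085).

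Markers of alveolar macrophages rose in part. The shares called were 60.0% for alveolar macrophages, 31.2% for interstitial macrophages and monocytes and 17.1% for chemokines, beside 11.5% of all genes. Of 15 alveolar macrophage markers 9 were higher (median 0.62), and 5 without hypoxic replicate 2 or normoxic replicate 2. The 9 include Cidec, which is also on the adipose list. Without hypoxic replicate 1, with its raised adipose markers, 8 were called higher. Trem2, a lipid-sensing receptor, went from 5.06, 5.00 and 5.39 to 6.81, 6.51 and 6.0 (2.45-fold, adjusted p = 0.0044), Gpnmb from 7.08, 6.84 and 6.87 to 8.49, 8.30 and 8.07 (2.56-fold), and the protease gene Ctsk from 6.07, 5.86 and 6.02 to 6.94, 6.99 and 7.04 (2.01-fold). The mannose receptor Mrc1 and the chitinase-like Chil3 rose 1.47- and 1.61-fold. Marco and Pparg, further markers of alveolar macrophages, did not pass (changes of 1.04 and 0.13, adjusted p = 0.074 and 0.63). The list of interstitial macrophages and monocytes was mixed, with 4 of 16 genes higher and 1 lower, against 1 in all without hypoxic replicate 2, 2 without normoxic replicate 2 and 3 without normoxic replicate 1. Cd68 and the C1q genes were the higher ones, and of these C1qc was called in each leave-out fit. Ccr2, the receptor that brings monocytes out of the marrow, was 0.519-fold (adjusted p = 0.021, lost without hypoxic replicate 2 and normoxic replicates 1 and 2), and Csf1r and Cx3cr1 did not pass (changes of -0.05 and -0.16). Chia1, an acidic chitinase, rose 1.61-fold and the alarmin Il33 1.63-fold, from 8.80, 8.65 and 8.95 to 9.69, 9.51 and 9.32. Among chemokines Ccl6 and Cxcl14 rose 2.12-fold each and Cxcl12 as given above, with 4 higher and 2 lower calls in 35 genes; without hypoxic replicate 2, normoxic replicate 1 or normoxic replicate 2 there were 3 calls, all higher.

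Inflammatory and lymphoid genes did not follow. The shares called were 45.5% for B cell, 25.0% for T cell and 23.1% for NK cell markers, beside 11.5% of all genes. Il1b fell from 6.76, 6.66 and 6.98 to 5.47, 5.93 and 5.95 (0.494-fold, adjusted p = 0.012). None of 23 interferon-stimulated genes was called by limma, with 2 higher and 2 lower at an unadjusted p under 0.05. All 11 B cell markers had a lower mean in hypoxia and 5 were called lower (median -0.45), but 3 without hypoxic replicate 4, 2 without normoxic replicate 1 and 1 without hypoxic replicate 2 or normoxic replicate 2, the scaffold gene Bank1, which went from 7.12, 7.42 and 6.96 to 5.82, 5.91 and 6.30 (0.448-fold). NK cell markers were called lower in 3 of 13 cases, the same number as at an unadjusted p under 0.05, but limma called 1 without normoxic replicate 2 and 0 without hypoxic replicate 2. T cell markers had 1 higher and 2 lower calls in 12 (2 and 5 at an unadjusted p under 0.05), and 0 without hypoxic replicates 2 or 4 or normoxic replicates 1 or 2. In the complement list C1qc, a subunit of the recognition molecule C1q made by macrophages, rose 2.01-fold, while Cd55 and Cd46, both shields against complement, fell to 0.317 and 0.419.

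Nfat5 itself, intact in these mice, stood at 9.01, 9.39 and 8.92 in normoxia and 8.61, 8.16 and 8.51 in hypoxia. The groups were separate and the level in hypoxia was 0.624 of that in normoxia (adjusted p = 0.016), a call lost without hypoxic replicate 2 (adjusted p = 0.067) and normoxic replicate 2 (0.059). Of 10 genes in the NFAT5 and osmotic list 2 were called higher and 1 lower, and 1 in all without hypoxic replicate 2 or normoxic replicate 2. Slc6a6, the taurine transporter and a known NFAT5 target, rose 1.73-fold from 9.78, 10.18 and 9.77 to 10.67, 10.62 and 10.80 (adjusted p = 0.0048).

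The group means of control and knockout lungs share no array, but the spread behind their p-values was pooled over both. Calls in control lungs and calls in knockout lungs are therefore not independent. The knockout lungs went through the same exposure. There 282 genes passed (1.14%), and 209 of these were also called in control lungs, with the same sign in all 209; they make up 7.36% of the control calls and 74.1% of the knockout calls. Of the 2839 control calls 2607 had the same sign in knockout lungs (91.8%), against 65.2% of all genes, but their size was smaller: the median change in knockout lungs was 0.26 for the genes higher in controls and -0.27 for those lower. Since the genes were chosen in control lungs, their control values lean toward large ones. The knockout groups overlapped on the nuclear RNA index, with 6.12, 6.53 and 6.14 in normoxia and 5.79, 6.22 and 6.11 in hypoxia.

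Several of the leading genes were called in both genotypes. Ntrk2 changed by 2.98 ± 0.19 in knockout lungs, Cdk19 by 1.71 ± 0.10, Npy1r by 1.65 ± 0.14, Adam23 by 2.01 ± 0.27, Slc26a10 by 1.73 ± 0.21 and Reln by 1.34 ± 0.17, each called there too. The same held for Plvap (-1.35 ± 0.20), Bmp6 (-1.12 ± 0.15), Ednrb (-0.77 ± 0.12) and Vegfc (0.94 ± 0.14). The 22 listed collagens had a median of 0.22 in knockout lungs. The knockout change was -0.49 ± 0.25 for Clk1 and -0.83 ± 0.38 for Dnah12. A change past the threshold in 1 genotype only is no difference between them, and the test of that difference, the interaction of hypoxia and genotype, called 1 of 24704 genes (0.00405%), Gm10566, with 2037 at an unadjusted p under 0.05. For Reg3g and Dnah12 the control change minus the knockout change was 1.83 and -1.37, with adjusted p values of 0.57 and 0.59 in limma.

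**Figure D5:**
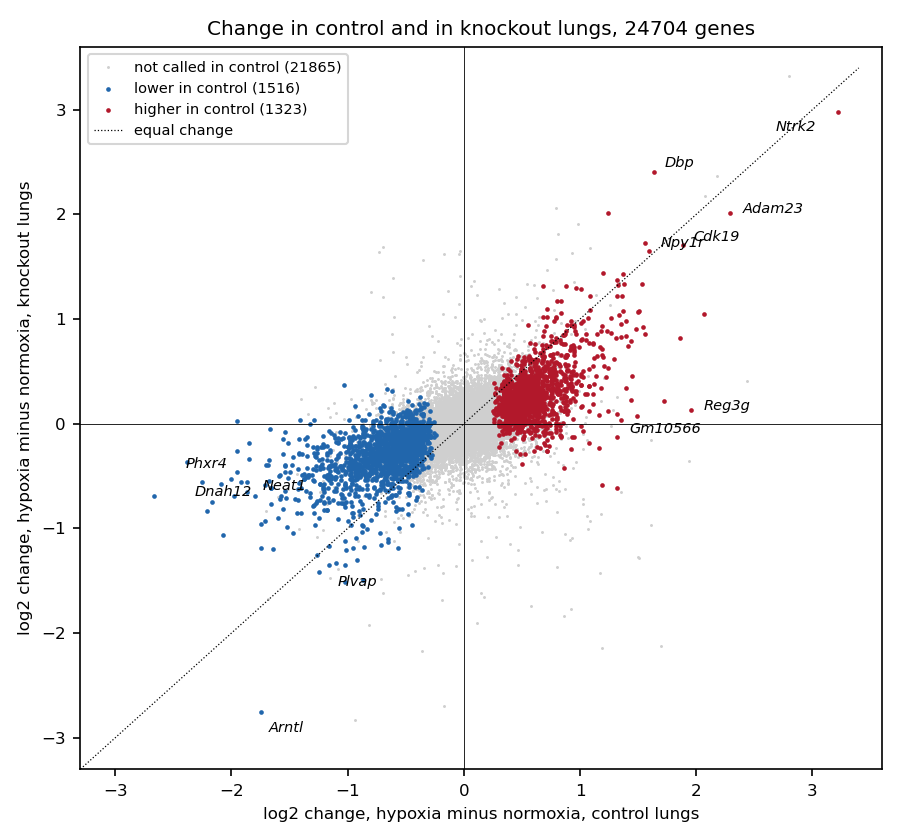
Log2 change in hypoxia for 24704 genes, control lungs on the x axis and knockout lungs on the y axis; red and blue mark genes called higher (1323) and lower (1516) in control lungs, and the dotted line marks equal change. Ntrk2 lies at 3.22 and 2.98, close to the line, and Gm10566 at 1.32 and 0.09.

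The sexes were not balanced, and over all called genes both gave medians in the same range. In the male arrays, 1 hypoxic against 2 normoxic, the median difference of the called genes was 0.49 for higher and -0.59 for lower ones, and in the female arrays, 2 hypoxic against 1 normoxic, 0.61 and -0.71. Some lists differed more between the sexes. The median was 0.18 in males and 0.81 in females for clock genes, -0.17 and -0.61 for ciliated cell markers, and 0.1 and 1.12 for adipose markers. For the listed collagens the medians were 0.54 and 0.67. Normoxic replicate 1 was the only normoxic female among the controls. All these differences come from the arrays that made the calls and are a description. With the Y-linked level as a covariate limma called 1794 genes.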

How the data were processed

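RNA from whole mouse lung was hybridised to 12 Affymetrix arrays, 3 per group. Values are log2 levels made by the authors with RMA, per the submitters' processing notes, and were used as deposited; the sorted values of all arrays were identical. Of 25428 probe sets, 24705 carried 1 gene symbol, and 24704 genes were tested after 1 duplicate was left out. Group means were fitted over all 12 arrays with limma 3.58.1 in R 4.3.3, with Benjamini-Hochberg adjustment over all genes and a call at an adjusted p under 0.05. Changes are given ± SE of the fit. Precision is limited by 3 arrays per group. The scripts were tested on simulated data. Named genes are those with the largest non-overlapping changes, up to 8 per list and a fixed group of hypoxia genes; Npas2, Per2, Cidec, Clca1, Muc5ac, Ucp1 and Eef1a1 were added after their values were seen. The members and the 68 lists were chosen with earlier results of these data known. Sex was read from Y-linked genes. Replicate numbers were not treated as pairs. Alternatives were a filter, scaling, array weights, covariates, the 6 control arrays alone and leaving out each array. Promoters came from RefSeq (GRCm38.p6).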

Additional observations from a re-analysis of the deposited data

Results flagged for a closer look

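In the fit of all 12 arrays 1 gene, the predicted gene Gm10566, passed the test of a difference in the response to hypoxia between the 2 genotypes. It stood at 7.74, 7.63 and 7.76 in normoxic and 8.98, 9.04 and 9.09 in hypoxic control lungs, a change of 1.32, against a change of 0.09 in knockout lungs. The interaction of hypoxia and genotype was 1.24 (limma, adjusted p = 0.017). The call was lost, with 0 genes called, with the replicate number as a block, with either covariate, and without any 1 array other than knockout hypoxic replicates 3 and 4 and control normoxic replicate 4; over all genes 2037 had an unadjusted p under 0.05.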

How the results depend on the processing

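In control lungs 2839 genes were called, 1100 with the 6 control arrays alone, 2 with the nuclear RNA covariate and 1794 with the Y-linked covariate; leaving out 1 array gave 808 to 3920. In knockout lungs 282 were called, 508 with array weights, 136 with the nuclear RNA covariate and 166 with the Y-linked covariate; leaving out 1 array gave 71 to 258. The interaction gave 1 call, 2 with array weights, 0 with either covariate, and 0 to 3 when 1 array was left out, beside 2037 at an unadjusted p under 0.05 (limma). With the replicate number as a block the counts were 1169, 3 and 0. Same-numbered control arrays deviated from their group means with correlations of 0.1769, -0.09404 and 0.01647. With 3 arrays per group these values cannot decide whether the numbers pair the lungs. Ccdc39, Prpf39 and Srsf10 changed sign with the nuclear RNA covariate, to 0.02, 0.07 and 0.24; the cause was not tested. The filter, the variance trend and the centring moved no count by over 1.5 times. Dim genes gave few calls, and 3 arrays per group limit the rest.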

Other observations

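Some classes of genes are not described above. Their shares of calls stand beside those of all genes, 5.36% higher and 6.14% lower. Of 534 microRNA genes 1.12% were higher and 7.3% lower, and of 865 pseudogenes 6.24% were higher and 2.43% lower. Of 106 small nucleolar RNA genes 0.0% were higher and 9.43% lower, with a median change of -0.26. Of 57 genes of the Usp series 3.51% were higher and 17.5% lower. The nuclear RNA index was lower on the hypoxic control arrays as well, and its part in these shares was not tested.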
